A study of Mus musculus with 2 samples.

Results

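The immediate early and heat shock genes described here are 40 of the 32285 genes counted in aortic leukocytes, 30 immediate early genes and 10 heat shock genes. They were chosen by symbol, and every member was found in both libraries. The study was designed to ask how ZnDPA@siIRF5, a carrier loaded with a small interfering RNA to the transcription factor IRF5, affects macrophages of the mouse aortic lesion. CD45+ cells, white blood cells and resident macrophages, were put through 3′ single-cell RNA sequencing in droplets, which gave 2 libraries. The labels assign 1 library to the ZnDPA@siIRF5-treated group and 1 to the control group. Both are mouse aorta, and the labels do not state how many animals were pooled, their strain, genotype, diet, sex or age, or what the control mice received. With 1 library per group, differences between animals or preparations and the treatment cannot be told apart, so no test was made and every interval covers counting error only.

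Immediate early genes are switched on within minutes of a stimulus without new protein synthesis, through factors already present in the cell. They encode AP-1, EGR and NR4A transcription factors, and with them the phosphatases, RNA-binding proteins and inhibitors that shut the same signals down again. Heat shock genes encode chaperones that refold or hold unfolded proteins, and many are driven by heat shock factor 1. In macrophages both groups respond to phagocytosis, cytokines and stress, and both are also known to respond to tissue dissociation. The labels do not say how the aortas were dissociated, and its part in the values below was not tested.

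The treated-labelled library held 13155 barcodes and 77856529 UMIs (unique molecular identifiers, 1 per captured transcript), and the control-labelled library held 12516 barcodes and 88567528 UMIs. After the filters and removal of doublet calls, 11805 and 11523 cells remained, with medians of 4543 and 4629 UMIs per cell. The libraries had 45 barcodes in common, of which 37 were among the kept cells of both. Irf5, the target of the small interfering RNA, was not lower in the treated-labelled library: macrophage-like cells held 122.8 CPM (counts per 1000000 UMIs of the class) there and 111.3 CPM in the control-labelled library, a log2 ratio of 0.14 (95% interval 0.03 to 0.25). Every direction below is therefore one between the libraries as labelled.

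Cells were grouped into 12 classes with at least 100 cells in each library: 10 named from markers, 1 mixed dendritic cell class and 1 unnamed cluster (cluster 2, led by Lyz1, Retnla and Fn1). Members were left out of the genes used to group them. Macrophage-like cells numbered 1899 and 1441, neutrophil-like cells 2307 and 1273, monocyte-like cells 2126 and 753, T cell-like cells 1748 and 2810, B cell-like cells 949 and 1871, and plasma cell-like cells 396 and 1232 in the libraries labelled treated and control. The summed macrophage markers were at 15360 and 16850 CPM in macrophage-like cells, and none of the 10 markers was at 0. The mixed dendritic cell class (438 and 217 cells) met the rule for migratory dendritic cells, with Ccr7, Fscn1 and Ccl22, but also had Cd209a among its leading genes. With clustering at resolution 2, 81.1% of its cells fell in a class named from conventional dendritic cell 2 (cDC2-like) markers and 18.0% in one named from migratory dendritic cell markers.

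The promoters of several members hold the sequence motifs by which these gene groups are known. Heat shock factor binds inverted repeats of GAA, and the 3-unit element GAANNTTCNNGAA or TTCNNGAANNTTC was found in 0.603% of the 32851 RefSeq promoters (GRCm38.p6, 250 bases before to 50 after a start, both strands searched). It was present in 3 of the 7 heat shock members with such a promoter, Hspd1, Hspe1 and Hsph1, and in 0 of the 26 immediate early members with one. Counted by promoter, as the share of all promoters is, these were 4 of 12 and 0 of 37. A gene can have several overlapping promoters. Hspd1 and Hspe1 encode the mitochondrial chaperonin and its lid, lie on opposite strands with starts 216 bases apart, and share 285 bases of promoter (chr1:55087898-55088182). The same element is printed below as read from each gene's strand, 5′ to 3′, with motif letters in capitals (chr1:55088029-55088106), followed by that of Hsph1, an HSP110 chaperone (chr5:149636287-149636316, minus strand).

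Hspd1: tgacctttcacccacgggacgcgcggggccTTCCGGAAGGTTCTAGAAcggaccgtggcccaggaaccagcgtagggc
Hspe1: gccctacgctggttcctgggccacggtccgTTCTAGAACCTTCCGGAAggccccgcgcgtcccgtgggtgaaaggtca
Hsph1: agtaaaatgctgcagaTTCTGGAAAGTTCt

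Hspa1a and Hspa1b, the stress-inducible HSP70 genes on which much of the result below turns, are neighbouring copies on chromosome 17. Their promoters had the same base at 296 of 300 positions. Neither holds the 3-unit element in this window, and each holds the shorter pair GAANNTTC or TTCNNGAA, which 15.1% of all promoters hold (both strands searched). The 250 bases before each start are shown because so little separates the pair (Hspa1a, chr17:34972157-34972406, and Hspa1b, chr17:34959239-34959488, both minus strand, 5′ to 3′). Capitals mark the 3 bases that differ in this stretch.

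Hspa1a: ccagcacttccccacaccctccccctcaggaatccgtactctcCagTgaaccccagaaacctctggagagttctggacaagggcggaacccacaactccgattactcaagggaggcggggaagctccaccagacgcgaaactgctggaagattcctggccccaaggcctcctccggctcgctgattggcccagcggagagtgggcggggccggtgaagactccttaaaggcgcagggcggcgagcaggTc
Hspa1b: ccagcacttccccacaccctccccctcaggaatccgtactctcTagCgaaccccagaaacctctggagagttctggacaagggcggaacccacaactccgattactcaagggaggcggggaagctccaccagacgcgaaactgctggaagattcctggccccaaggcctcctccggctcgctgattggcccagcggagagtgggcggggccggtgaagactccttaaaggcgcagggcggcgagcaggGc

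The transcripts of the pair shared 49.3% (Hspa1a) and 52.3% (Hspa1b) of their runs of 90 bases, but 0% of the runs in their last 500 bases, where a 3′ library reads. The sources used here do not state how the authors' counting treated reads that match both genes, so the split between the copies is uncertain. Nor do they state whether the counting used strand, and several members overlap a counted gene on the other strand: Jun, Junb, Jund, Dusp1, Zfp36, Ppp1r15a, Hspa1a, Dnaja1, and Hspd1 with Hspe1. Reads of such neighbours may be part of their values.

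Among immediate early members, the cAMP response element TGACGTCA, bound by CREB and ATF factors, was found in the promoters of 4 of 26 (Btg2, Dusp1, Maff and Ppp1r15a). Counted by promoter it was in 4 of 37, beside 1.79% of all promoters. The CArG box, bound by serum response factor, was found in 3 of 26 (Dusp5, Egr2 and Zfp36). By promoter that was 6 of 37, some of them overlapping promoters of Egr2, beside 1.63% of all promoters. Both strands were searched. A match describes letters in this window and not a bound site. The windows around the motifs of Zfp36, Dusp1 and Btg2, 3 inhibitors of signalling or growth whose levels are given below, are shown 5′ to 3′ on the minus strand with the motif in capitals (chr7:28379247-28379316, chr17:26508578-26508645 and chr1:134079284-134079351).

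Zfp36: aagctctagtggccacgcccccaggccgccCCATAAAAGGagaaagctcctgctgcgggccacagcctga
Dusp1: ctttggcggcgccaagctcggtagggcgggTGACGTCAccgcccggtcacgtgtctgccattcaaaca
Btg2: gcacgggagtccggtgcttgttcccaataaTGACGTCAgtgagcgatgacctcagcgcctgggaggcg

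The members were spread over the leukocytes in much the same way in both libraries. The class with the highest level of a member was the same in both for 32 of 40 members, and the class with the lowest for 26 of 40. Macrophage-like cells were highest for 14 members in the treated-labelled library and for 15 in the control-labelled library, and group 2 innate lymphoid (ILC2-like) cells for 9 and 8. Plasma cell-like cells were lowest for 11 and 19 members. The intervals of the 2 highest classes overlapped for 12 members in the treated-labelled library and for 9 in the control-labelled library.

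**Figure D1:**
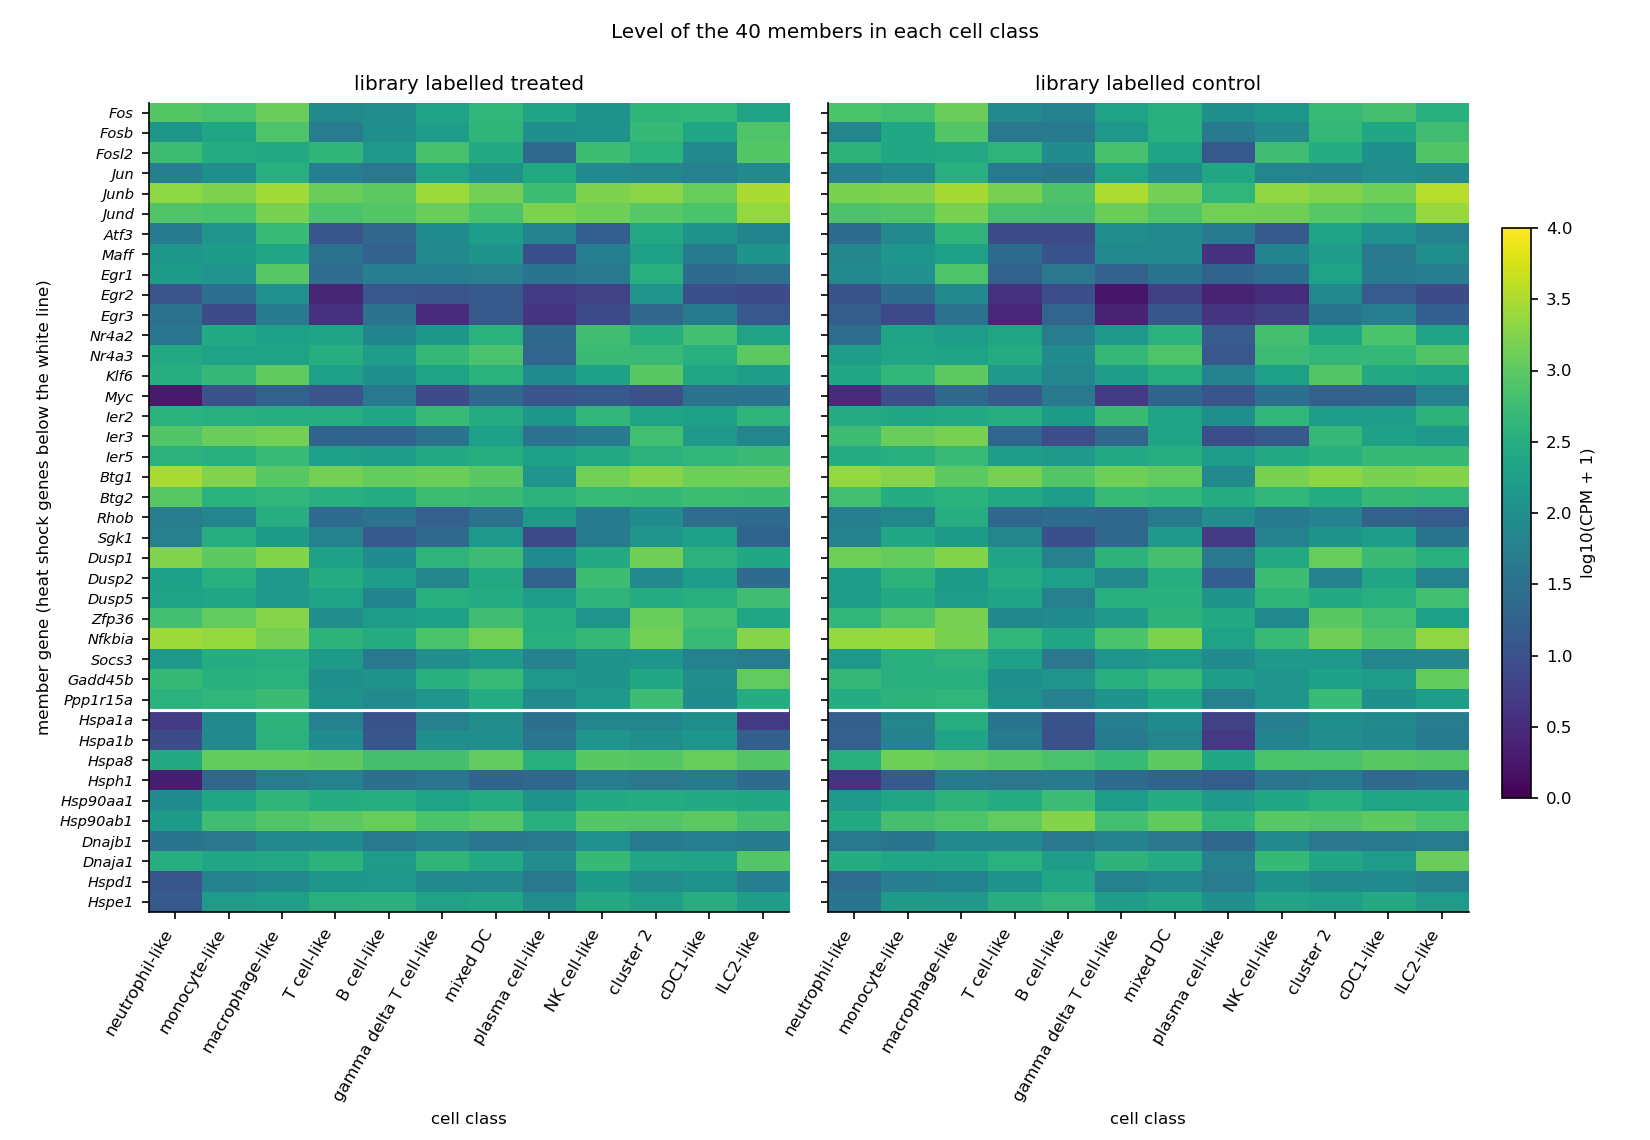
Level of each of the 40 members, as log10(CPM + 1), in 12 classes of the treated-labelled library (left) and the control-labelled library (right). Rows are genes, columns are classes and colour is the level. The macrophage-like and ILC2-like columns hold the highest level of 14 and 9 members (left) and of 15 and 8 members (right), and the neutrophil-like column is dark for most heat shock genes.

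AP-1 subunits, the leucine zipper proteins that pair to form AP-1, separated myeloid from lymphoid cells unevenly. Fos was highest in macrophage-like cells, at 1218 CPM in the treated-labelled library and 1223 CPM in the control-labelled library. Its lowest class was T cell-like at 77.9 CPM in the treated-labelled library and B cell-like at 56.3 CPM in the control-labelled library. Jun, its usual partner, was also highest in macrophage-like cells (330.5 and 324.8 CPM) and lowest in B cell-like cells (38.1 and 34.0 CPM). Junb and Jund, which lymphocytes also use, were instead highest in ILC2-like cells, Junb at 3058 and 3556 CPM and Jund at 2345 and 2405 CPM. Fosl2 was highest there too, at 873.6 and 824.4 CPM, and lowest in plasma cell-like cells, at 23.0 and 11.6 CPM. Atf3, a stress-induced repressor of inflammatory genes, was highest in macrophage-like cells (508.7 and 414.2 CPM) and lowest in T cell-like cells (10.6 and 7.16 CPM). Maff, a small MAF protein, had the same highest class, at 225.5 and 195.6 CPM. Fosb was highest in ILC2-like cells of the treated-labelled library (789.0 CPM, with overlap with macrophage-like cells) and in macrophage-like cells of the control-labelled library (862.3 CPM).

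EGR factors, zinc finger proteins induced through the ERK pathway, and NR4A orphan receptors had different highest classes. Egr1 reached 916.2 CPM and 787.2 CPM in macrophage-like cells, against 25.8 and 16.5 CPM in T cell-like cells. Egr2 was highest in cluster 2 (122.1 and 82.2 CPM), where its interval overlapped that of the next class in both libraries. Egr3 was highest in the conventional dendritic cell 1 (cDC1-like) class, at 43.9 and 51.2 CPM, also with overlap. Nr4a2 was highest in cDC1-like cells at 645.2 and 737.5 CPM, and Nr4a3 in ILC2-like cells at 965.6 and 828.1 CPM. Both were lowest in plasma cell-like cells, Nr4a2 at 21.2 and 13.1 CPM and Nr4a3 at 19.0 and 11.4 CPM. Klf6, a zinc finger activator, was highest in macrophage-like cells (1055 and 1016 CPM). Myc, the growth regulator, was low everywhere, with its highest level at 39.97 CPM in B cell-like cells of the treated-labelled library and 59.2 CPM in ILC2-like cells of the control-labelled library.

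Among the regulators and feedback inhibitors, the highest class differed from gene to gene. Btg1 and Btg2, antiproliferative partners of the deadenylase complex, were highest in neutrophil-like cells, Btg1 at 2959 and 2358 CPM and Btg2 at 954.3 and 610.0 CPM. Dusp2, a phosphatase of MAP kinases, was highest in natural killer (NK) cell-like cells (571.9 and 575.8 CPM), and Dusp5, a phosphatase of ERK, in ILC2-like cells (603.0 and 611.8 CPM). Gadd45b, a stress sensor that signals to p38, was also highest in ILC2-like cells, at 1099 and 1140 CPM. Sgk1, a salt- and glucocorticoid-induced kinase, was highest in monocyte-like cells (307.7 and 240.4 CPM).

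Macrophage-like cells held the highest levels of 5 further members of these roles. Ier3, an inhibitor of apoptosis, was at 1455 and 1502 CPM there, against 16.8 and 7.72 CPM in B cell-like cells. Dusp1, the phosphatase that ends p38 and JNK signalling, was at 1809 and 1787 CPM, and Zfp36 (tristetraprolin), which speeds decay of Tnf mRNA, at 1888 and 1512 CPM. Socs3, which blocks cytokine receptor signalling, was at 336.3 and 402.8 CPM, and Rhob, a small GTPase, at 313.9 and 314.3 CPM. Ier2 was highest in gamma delta T cell-like cells (515.6 and 524.2 CPM) and Ppp1r15a (GADD34), which restarts translation after stress, in cluster 2 (567.0 and 511.7 CPM). Nfkbia, the inhibitor of NF-κB, was highest in neutrophil-like cells of the treated-labelled library (2634 CPM) and in monocyte-like cells of the control-labelled library (2434 CPM). Ier5 was highest in ILC2-like cells (526.0 CPM) of the treated-labelled library and in macrophage-like cells (488.4 CPM) of the control-labelled library, with overlapping intervals between the top classes.

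The chaperones divided by type. Hspa1a and Hspa1b were highest in macrophage-like cells of both libraries, Hspa1a at 391.2 and 304.9 CPM and Hspa1b at 368.6 and 216.0 CPM. Hsp90ab1, the constitutive cytosolic HSP90, was highest in B cell-like cells (1193 and 1822 CPM) and lowest in neutrophil-like cells (148.7 and 266.3 CPM), and Hspe1 followed the same order at the top and bottom (340.9 and 431.1 CPM, against 12.6 and 34.4 CPM). Dnaja1, a J-domain partner of HSP70, was highest in ILC2-like cells (854.8 and 1231 CPM), and Dnajb1, the stress-induced J-domain protein, in NK cell-like cells (105.6 and 81.2 CPM). Hspa8, the constitutive HSP70, was at 1149 and 1108 CPM in macrophage-like cells and at 282.6 and 323.7 CPM in neutrophil-like cells. Hsp90aa1, the inducible cytosolic HSP90, was highest in macrophage-like cells of the treated-labelled library (415.5 CPM) and in B cell-like cells of the control-labelled library (555.8 CPM). Hspd1 and Hsph1 were lowest in neutrophil-like cells in both libraries, Hspd1 at 10.97 and 26.1 CPM and Hsph1 at 1.13 and 3.15 CPM.

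At the other end, plasma cell-like and B cell-like cells held the lowest levels of most immediate early members. Plasma cell-like cells were lowest in both libraries for Junb (573.9 and 431.8 CPM), Maff, Klf6 (86.95 and 57.96 CPM), Ier2, Btg1 (121.1 and 79.9 CPM), Sgk1, Dusp2 and the chaperone partner Dnaja1. B cell-like cells were lowest in both for Ier5 (173.0 and 137.8 CPM), Btg2, Dusp5 and Socs3 (39.6 and 37.2 CPM). T cell-like cells were lowest in both for Zfp36 (90.4 and 71.5 CPM) and Fosb, gamma delta T cell-like cells for Egr3 and neutrophil-like cells for Myc. In the control-labelled library plasma cell-like cells were also lowest for Dusp1, Nfkbia, Ppp1r15a, Hspa1a, Hspa1b, Hspa8, Hsp90aa1 and Dnajb1. In the treated-labelled library the lowest class of these 8 was B cell-like for the first 3, ILC2-like for Hspa1a and neutrophil-like for the other 4.

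In macrophage-like cells, the cells the study was about, the immediate early genes were on balance at the same level in both libraries. Hspa1b had the largest ratio of the heat shock genes. The median log2 ratio, treated-labelled library over control-labelled library, was 0.02 for the 30 immediate early members and 0.22 for the 10 heat shock members, beside 0.02 for the 12774 genes with at least 20 UMIs. Of the immediate early members 16 had a ratio above 0, and of the heat shock members 9. Hspa1b, at 368.6 and 216.0 CPM, was the 1 member of 40 at least 1.5-fold higher, with a log2 ratio of 0.77 (0.70 to 0.85). No member was 1.5-fold lower, and over all genes with at least 100 UMIs 2.38% were past 1.5-fold higher and 3.07% past 1.5-fold lower. The 1 of 40 members, 2.5%, is near the share of all genes. The middle 95% of the 12774 genes ran from -1.01 to 0.79, a range that takes in Hspa1b. The count of 1 stayed small but moved to between 2 and 4 members under 4 of the alternative settings given at the end.

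**Figure D2:**
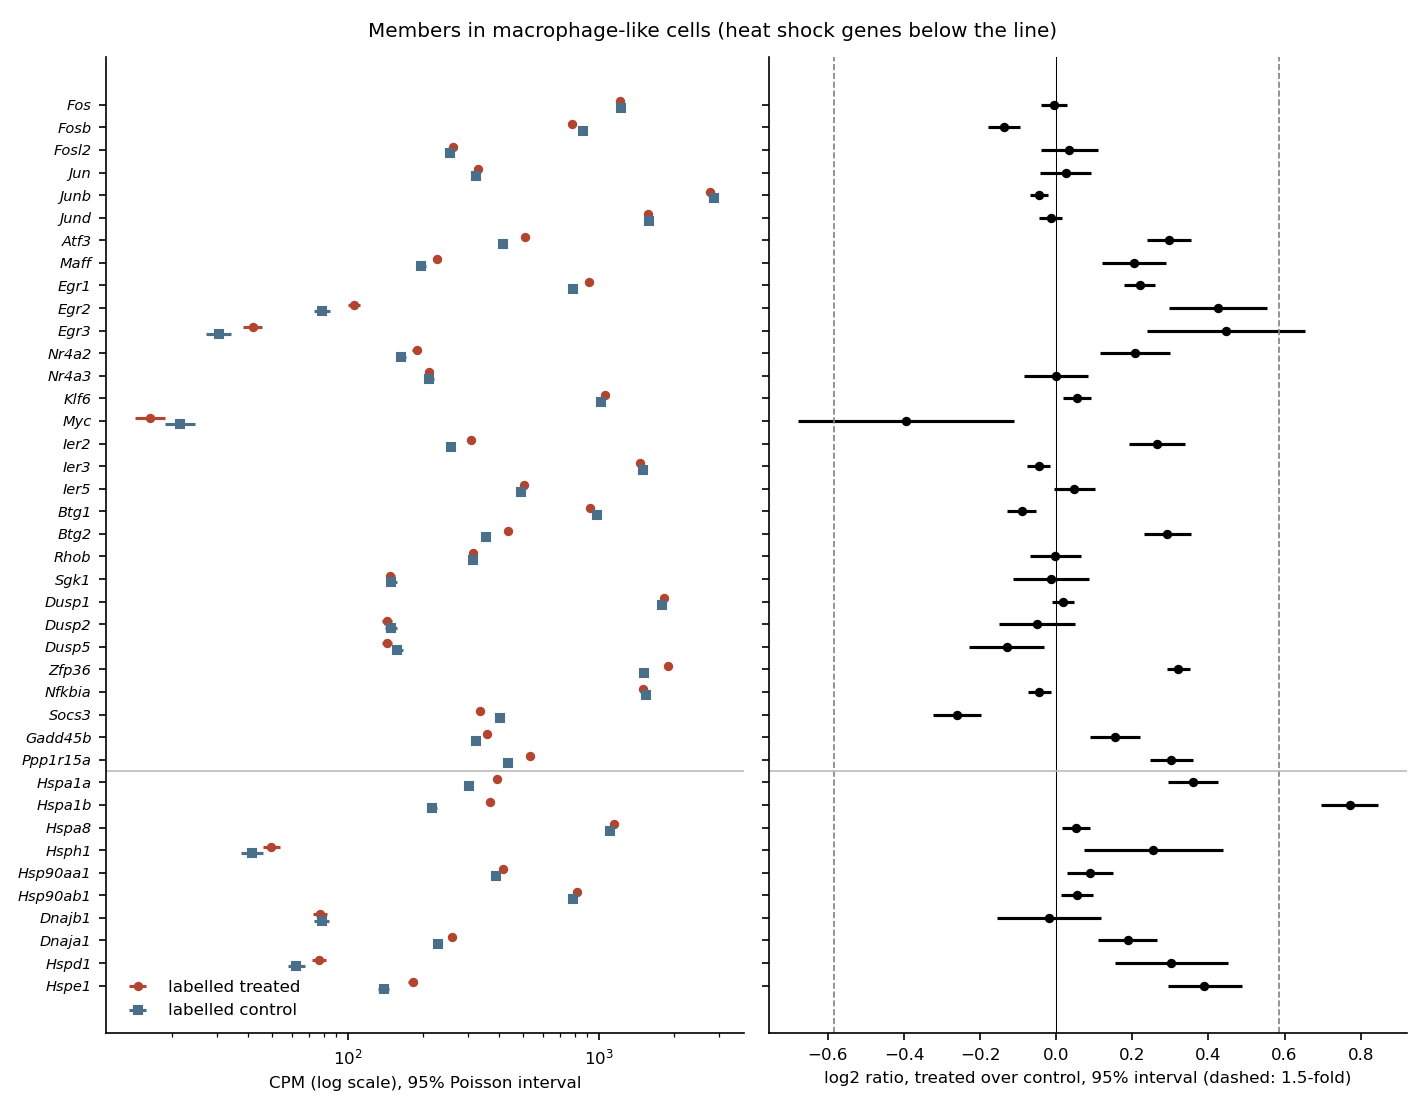
The 40 members in macrophage-like cells. Left, CPM on a log scale with 95% Poisson intervals (red circles, treated-labelled library; blue squares, control-labelled library); right, log2 ratio with its 95% interval, dashed lines at 1.5-fold. Hspa1b, at 0.77, is the only member whose point lies outside the dashed lines.

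AP-1 subunits in macrophage-like cells lay close to 0, with a median ratio of 0.01 and 4 of 8 above it. Fos was at -0.01, Jund at -0.01 (1564 and 1581 CPM) and Junb at -0.05 (2775 and 2864 CPM). Atf3 had the largest ratio of the group, 0.30, and Fosb the lowest, -0.14 (784.4 and 862.3 CPM). EGR and NR4A factors had a median of 0.22, with 4 of 5 above 0. Egr1 was at 0.22, Egr2 at 0.42 (105.5 and 78.7 CPM), Egr3 at 0.45 (41.7 and 30.6 CPM) and Nr4a2 at 0.21 (187.9 and 162.7 CPM), while Nr4a3 was at -0.00 (209.9 and 210.0 CPM). Myc had the lowest ratio of any member, -0.40, from 212 UMIs in the treated-labelled library and 208 in the control-labelled library.

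The regulators and feedback inhibitors did not move as a block. Their medians were -0.00 over 7 regulators and -0.01 over 8 inhibitors. Zfp36 had the highest ratio of these roles, 0.32, followed by Ppp1r15a at 0.30 (533.2 and 432.4 CPM) and Btg2 at 0.29 (434.6 and 355.0 CPM). Socs3 had the lowest, -0.26. Ier5 was at 0.05 (504.6 and 488.4 CPM) and Btg1 at -0.09 (921.0 and 981.0 CPM), and the transcription factor Klf6 was at 0.05. Dusp1 (0.02), Nfkbia (-0.04, 1498 and 1545 CPM) and Ier3 (-0.05), 3 well-counted members of these roles, lay near 0.

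Chaperone ratios were above 0 in macrophage-like cells except for Dnajb1, at -0.02 (77.5 and 78.6 CPM). Hspa1a was at 0.36 (0.29 to 0.43), Hspe1 at 0.39 (181.5 and 138.6 CPM), Hspd1 at 0.30 (76.9 and 62.4 CPM) and Hsph1 at 0.25 (49.5 and 41.5 CPM). Dnaja1 was at 0.19 (259.6 and 228.0 CPM). The constitutive Hspa8 and Hsp90ab1 were both at 0.05 (Hsp90ab1 at 816.9 and 786.9 CPM). The inducible Hsp90aa1 also lay near 0, at 0.09 (415.5 and 390.7 CPM). Markers of other cell types also differed in these cells: summed neutrophil markers were at 787.6 and 430.4 CPM, monocyte markers at 870.5 and 619.5 CPM and B cell markers at 65.2 and 207.3 CPM. None of the markers in these 3 lists was at 0 in either library, and 10 of 12, 10 of 10 and 0 of 10 were higher in the treated-labelled library. In the 664 and 581 macrophage-like cells with at most 1 UMI of the markers of other lineages, the list medians were 0.06 and 0.26, immediate early before heat shock, and Hspa1b was at 1.06.

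Hspa1a and Hspa1b were carried by few cells. Hspa1a was detected in 38.7% of macrophage-like cells of the treated-labelled library and 35.3% of those of the control-labelled library. After each cell was thinned to 2000 UMIs, these shares were 25.5% (23.5 to 27.6, Clopper-Pearson) of 1762 cells and 21.2% (19.0 to 23.5) of 1346 cells, with 137 and 95 shallower cells left out. B cell-like cells, thinned the same way, had 1.53% and 0.99%. Hspa1b was detected in 28.6% and 20.7% of macrophage-like cells, and in 17.7% (15.95 to 19.6) and 11.1% (9.44 to 12.9) of them after thinning, against 1.75% and 0.99% in B cell-like cells. The unthinned medians were 6290 and 6076 UMIs in macrophage-like cells and 4958 and 4505 UMIs in B cell-like cells.

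Cells with at least 10 UMIs of Hspa1b numbered 133 of 1899 in the treated-labelled library and 48 of 1441 in the control-labelled library, and they held 78.96% and 79.05% of its UMIs. For Hspa1a there were 139 and 63 such cells with 70.0% and 66.4% of its UMIs. The top 1% of macrophage-like cells, 19 and 15 cells, held 26.6% and 41.7% of Hspa1b UMIs but 4.95% and 5.17% of Hspa8 UMIs. Fos and Egr1 lay between, with 8.05% and 12.4% of Fos UMIs and 8.68% and 12.8% of Egr1 UMIs in the top 1%. The 3 cells with most Hspa1b UMIs held 5.51% and 12.4% of them, and without those cells the log2 ratio was 0.88.

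**Figure D3:**
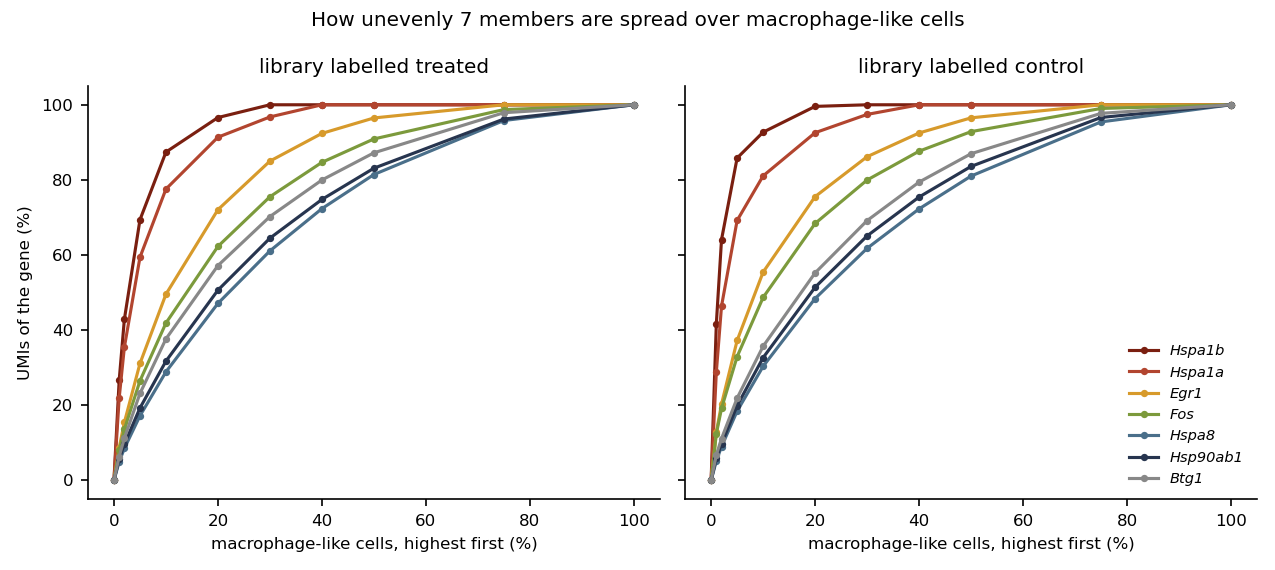
Share of a gene's UMIs (vertical axis, %) held by a given share of macrophage-like cells, highest cells first (horizontal axis, %), in the treated-labelled library (left) and the control-labelled library (right) for 7 members. The steepest curves are those of Hspa1b and Hspa1a: the top 10% of cells hold 87.4% and 92.7% of Hspa1b UMIs.

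The cells that carried Hspa1a and Hspa1b also had higher mean counts of the other chaperones. Macrophage-like cells with 3 or more UMIs of the pair after thinning to 2000 UMIs (219 and 88 cells) were set against those with 0 (1214 and 997 cells) within each library. All 8 other heat shock members had higher means in the carrying cells of both libraries, with median log2 ratios of 1.47 and 1.66. Hsph1 had the largest, 4.12 and 4.53, followed in both libraries by Dnajb1 at 1.89 and 2.41. Of the 30 immediate early members 21 had higher means in the carrying cells of each library, with medians of 0.63 and 0.27. This contrast was made for the members only, so no share over all genes stands beside these counts. Jun was at 2.29 and 2.62, Egr1 at 1.82 and 1.87, Atf3 at 1.52 and 1.01 and Fos at 1.17 and 1.44. Btg1 was lower in the carrying cells, at -0.44 and -0.33, and Nfkbia was near 0, at -0.01 and 0.10. Cells of 1 library are not replicates, and these are descriptions of single libraries.

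Across all macrophage-like cells, thinned to the same depth, members went together only loosely. The median Spearman correlation over the 435 pairs of immediate early members was 0.08 and 0.06, over the 45 pairs of heat shock members 0.12 and 0.09, and over the 300 mixed pairs 0.03 and 0.02. The closest pairs were Hspa1a with Hspa1b (0.54 and 0.36), Zfp36 with Junb (0.53 and 0.43) and Egr1 with Fos (0.52 and 0.47), over 1762 and 1346 cells. Hspa1a and Hspa1b are near-identical copies, and the counts are sparse, so that low values of this kind are no finding.

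Sub-clusters of macrophage-like cells differed more in these genes than the libraries did. Sub-cluster 1 (564 and 323 cells), which no marker list named, held Fos at 2420 CPM in the treated-labelled library and 2931 CPM in the control-labelled library, Egr1 at 2391 and 2290 CPM, Hspa1a at 1011 and 851.5 CPM and Hspa1b at 1053 and 742.2 CPM. Heat shock members made up 0.574% and 0.501% of its UMIs, the highest share of any sub-cluster in which each library had at least 50 cells. The foamy macrophage state-like sub-cluster, with Trem2, Gpnmb and Spp1, had the lowest share of immediate early members, 1.07% and 1.28% in 121 and 83 cells.

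**Figure D4:**
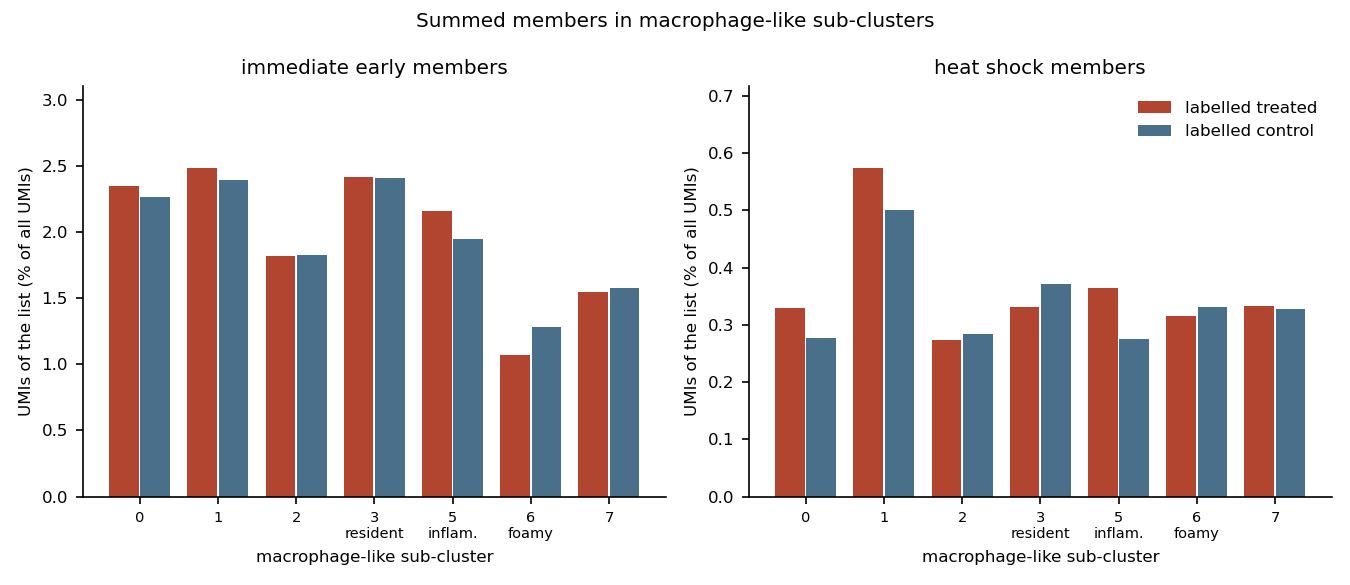
UMIs of the 30 immediate early members (left) and the 10 heat shock members (right) as a percentage of all UMIs in 7 macrophage-like sub-clusters with at least 50 cells in each library (red, treated-labelled library; blue, control-labelled library; 1 library each, so no error bars). In both libraries sub-cluster 1 has the highest heat shock share and the foamy-like sub-cluster the lowest immediate early share.

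The higher Hspa1b of the treated-labelled library was not common to all sub-clusters. Of the 7 with at least 50 cells in each library it was higher in 6 and lower in 1. The foamy-like sub-cluster had the largest ratio of these, 3.03 (104.8 and 12.8 CPM, from 110 and 9 UMIs), and sub-clusters 2 and 7 were at 1.07 and 0.51. In these 3 sub-clusters 3 cells held most Hspa1b UMIs: 66.4% and 66.7%, 60.15% and 83.3%, and 56.9% and 66.7%. Without those cells the ratios were 3.09 (1.43 to 5.43), 2.32 (0.88 to 4.25) and 0.88 (0.35 to 1.41). Hspa1b was also higher in the inflammatory macrophage state-like sub-cluster, which expresses Il1b and Tnf (335.8 and 96.4 CPM, log2 ratio 1.80), in sub-cluster 0 (187.0 and 61.1 CPM, 1.61) and in sub-cluster 1 (0.51). In the resident macrophage state-like sub-cluster (175 and 221 cells), with Lyve1, Folr2 and Timd4, it was lower, at 112.6 CPM in the treated-labelled library and 349.9 CPM in the control-labelled library, a log2 ratio of -1.64 (-1.93 to -1.35). Hspa1a was likewise lower there, at 249.5 and 485.2 CPM (-0.96). Sub-cluster 1, in which Hspa1b was higher, also scored best for the resident list, at 0.8, under the minimum of 1.2. It had Lyve1, Folr2 and Cd163 among its markers, so the lower Hspa1b was not common to all cells with resident markers. Without the 3 cells with most UMIs of the gene, Hspa1b was at -1.47 in the resident-like, 2.55 in the inflammatory-like and 2.27 in sub-cluster 0, although those 3 cells had held 39.2% and 45.9% of the UMIs in the resident-like sub-cluster. The inflammatory-like sub-cluster had 10 of 10 heat shock members above 0, with a median of 0.69, and the resident-like one 5 of 10, with a median of -0.11. Sub-clusters 7 and 9 were led by T cell and B cell genes, and in sub-cluster 9 (13 and 41 cells) 3 cells held 99.0% and 93.8% of Hspa1b UMIs.

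Across classes, Hspa1b was the member most often past 1.5-fold. It was at least 1.5-fold higher in the treated-labelled library in 7 of the 12 compared classes: macrophage-like, T cell-like, gamma delta T cell-like, mixed dendritic, plasma cell-like, NK cell-like and cDC1-like cells. In neutrophil-like cells it was lower by that fold. Egr1 came close: it was higher by that fold in neutrophil-like, T cell-like, gamma delta T cell-like, mixed dendritic, plasma cell-like and cluster 2 cells, and lower in cDC1-like cells. The counts of Hspa1b were low in most classes. T cell-like cells held 86.5 CPM and 44.9 CPM (log2 ratio 0.95, 0.79 to 1.10), gamma delta T cell-like cells 98.5 and 44.2 CPM (1.16), NK cell-like cells 121.9 and 63.3 CPM (0.95), cDC1-like cells 123.3 and 73.3 CPM (0.75) and mixed dendritic cells 97.4 and 63.9 CPM (0.61). Single cells carried much of this: 3 cells held 28.6% and 68.1% of the Hspa1b UMIs of gamma delta T cell-like cells, and without them the ratio was 2.32. In ILC2-like cells Hspa1b had 8 and 24 UMIs, and 3 cells held 9 of 10 and 48 of 50 UMIs of Hspa1a and Hspa1b together. The medians of the heat shock list were above 0 in 8 of the 11 classes other than cluster 2, and those of the immediate early list in 7 of 11. The median of all genes measured ran from -0.07 in neutrophil-like to 0.08 in cDC1-like cells. It was itself above 0 in monocyte-like, macrophage-like, gamma delta T cell-like, mixed dendritic, cDC1-like and ILC2-like cells. In mixed dendritic cells it was 0.07, above the heat shock median of 0.01.

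**Figure D5:**
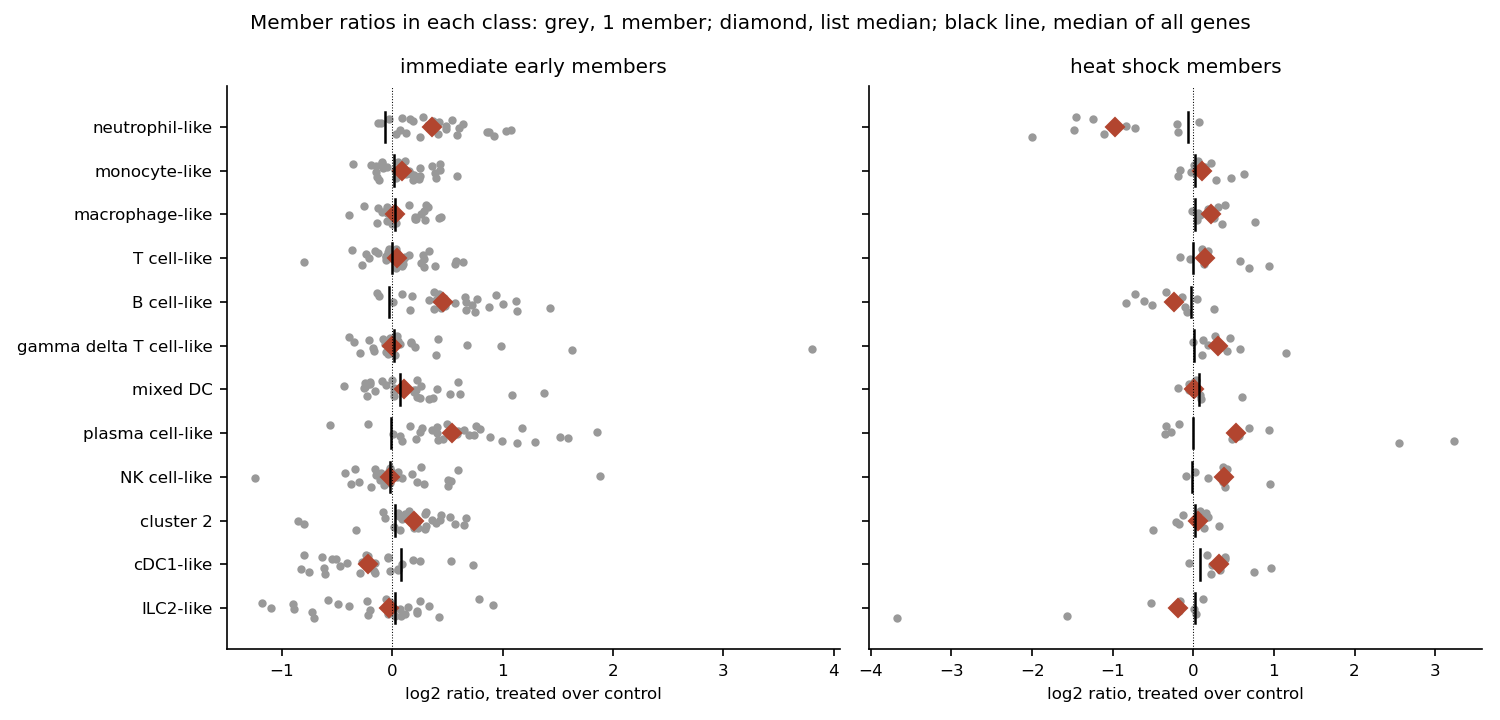
Log2 ratio, treated-labelled library over control-labelled library (horizontal axis), of each immediate early member (left) and heat shock member (right) with at least 20 UMIs, in 12 classes (vertical axis). Grey points are members, red diamonds list medians and black lines the median of all genes measured in the class. Immediate early medians lie farthest right in plasma cell-like (0.54) and B cell-like (0.46) cells, and the heat shock median farthest left in neutrophil-like cells (-0.97).

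Plasma cell-like cells, antibody-secreting B lineage cells, showed the largest ratio of all classes among members with at least 100 UMIs, from low levels. Hspa1b was at 35.8 CPM in the treated-labelled library and 3.802 CPM in the control-labelled library, a log2 ratio of 3.24 (2.89 to 3.60), and Hspa1a at 29.0 and 4.96 CPM (2.55). Few cells carried these UMIs: Hspa1b was detected in 30 of 396 and 37 of 1232 cells. Cells with at least 10 UMIs of Hspa1b, 9 and 1 in number, held 77.7% and 12.4% of its UMIs. For Hspa1a, 7 and 2 such cells held 73.4% and 20.7%. Dnajb1 was at 39.4 and 20.5 CPM (0.94) and Dnaja1 at 89.6 and 55.3 CPM (0.70). Of 28 immediate early members with at least 100 UMIs, 14 were at least 1.5-fold higher, and 4 of 10 heat shock members, while 6.97% of all genes were past that fold and 6.55% past it in the other direction, with 0 members there. The 14 ran from Klf6 at 0.59 to Ier3 at 1.86 (29.8 and 8.24 CPM), with Fos at 1.14 (213.9 and 97.4 CPM), Fosb at 1.29 (101.9 and 41.6 CPM), Dusp1 at 1.17 (87.4 and 38.7 CPM) and Nfkbia at 0.76 (334.1 and 197.1 CPM). Maff (1.59), Fosl2 (0.99), Egr1 (0.88), Sgk1 (0.80), Nr4a3 (0.74), Nr4a2 (0.70), Rhob (0.65) and Btg1 (0.60) made up the rest. Markers of other cell types differed as well: summed macrophage markers were at 183.5 and 57.0 CPM (9 of 10 higher) and neutrophil markers at 730.0 and 274.7 CPM (9 of 12 higher). Summed monocyte markers were at 1146 and 1244 CPM, lower in sum although 9 of 10 were higher. The part of such markers' cells in the ratios was not tested. In the 63 and 292 plasma cell-like cells with at most 1 UMI of other-lineage markers the list medians were 0.49 and 0.96, immediate early before heat shock, and Hspa1b was at 4.07, Fos at 2.07 and Ier3 at 0.13. That limit was not scaled to depth, in a class with medians of 18710 and 17750 UMIs per cell. The class joins cluster 14 (375 and 1046 cells) and cluster 18 (21 and 186 cells). In cluster 14 the medians were 0.49 and 0.84, and in cluster 18 -0.31 and 0.02, with 8 of 27 immediate early members above 0 and Hspa1b at 0 and 16 UMIs. Leaving out cells over 10000 UMIs, which are 342 of 396 and 1121 of 1232 of these cells, gave medians of 0.26 and 0.81 for the immediate early and heat shock lists.

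B cell-like cells had immediate early members higher and HSP90 lower in the treated-labelled library. Of 30 immediate early members 12 were at least 1.5-fold higher (4.92% of all genes) and 0 were lower (9.49%). Atf3 led with 19.99 and 7.41 CPM (log2 ratio 1.43), followed by Fosb at 98.4 and 44.9 CPM (1.13), Ier3 at 16.8 and 7.72 CPM (1.12) and Nr4a3 at 170.8 and 85.0 CPM (1.01). Zfp36 was at 158.9 and 82.6 CPM (0.94) and Btg2, with 1786 and 2304 UMIs, at a ratio of 0.77. The others were Maff (0.87), Fos (0.75), Egr3 (0.72), Fosl2 (0.67), Ier2 (0.67) and Dusp1 (0.66). Of the 10 heat shock members 3 were lower by that fold: Hsp90aa1 at 312.4 and 555.8 CPM (-0.83), Hspd1 at 133.7 and 219.9 CPM (-0.72) and Hsp90ab1 at 1193 and 1822 CPM (-0.61).

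The make-up of the B cell-like class differed between the libraries. It joins cluster 0 (871 and 1499 cells) and cluster 23 (78 and 372 cells), and in cluster 23 heat shock members made up 0.516% and 0.599% of UMIs, against 0.231% and 0.234% in cluster 0. Within cluster 0 the list medians were 0.23 and -0.06, and within cluster 23 0.69 and -0.21, immediate early before heat shock. Without cells over 10000 UMIs they were 0.30 and -0.00. Summed macrophage markers (143.3 and 76.2 CPM) and neutrophil markers (457.8 and 240.0 CPM) were higher in the treated-labelled library, 9 of 10 and 11 of 12 markers. In the 471 and 1035 B cell-like cells with at most 1 UMI of other-lineage markers the medians were 0.33 and -0.15.

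Neutrophil-like cells, in which transcripts are few (medians of 2182 and 2425 UMIs per cell), had higher immediate early members in the treated-labelled library. Of 29 members with at least 100 UMIs 8 were at least 1.5-fold higher, against 4.89% of all genes, and 0 lower, against 11.4%. Egr3 was at 30.3 and 14.4 CPM (1.08), Egr1 at 152.1 and 74.4 CPM (1.03), Fosb at 128.7 and 68.1 CPM (0.92), Atf3 at 43.2 and 23.6 CPM (0.87) and Maff at 128.4 and 70.8 CPM (0.86). Btg2 was at 954.3 and 610.0 CPM (0.65), Nr4a3 at 265.6 and 174.9 CPM (0.60) and Fosl2 at 576.1 and 382.5 CPM (0.59). The list median was 0.36 over the class, but 0.16 and 0.26 within its clusters 8 and 16, which held 1677 and 630 cells of the treated-labelled library and 849 and 424 of the control-labelled library. It was 0.20 without cells over 10000 UMIs, 0.22 with equal cell weights and 0.18 with doublet calls kept. In cells with at most 1 UMI of other-lineage markers it was 0.28. There Fosl2 (0.51), Nr4a3 (0.51) and Btg2 (0.54) were under 1.5-fold, while Fosb, Atf3, Maff, Egr1 and Egr3 were still past it.

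Several chaperones were lower in neutrophil-like cells of the treated-labelled library, and most of these ratios did not hold without cells of very many UMIs or with markers of other lineages. Of 8 heat shock members with at least 100 UMIs, 5 were at least 1.5-fold lower, against 11.4% of all genes: Hspe1 (12.6 and 34.4 CPM, -1.45), Hspd1 (-1.25), Hspa1b (7.42 and 15.96 CPM, -1.11), Hsp90ab1 (148.7 and 266.3 CPM, -0.84) and Hsp90aa1 (86.8 and 143.8 CPM, -0.73). A single cell of the control-labelled library, with 49308 UMIs in all, held 60 of the 140 UMIs of Hspa1a and Hspa1b in that class. Cells over 10000 UMIs were 26 and 52 in number and held 6.08% and 21.0% of the class's UMIs. Without them the heat shock median was 0.01 in place of -0.97, with Hspe1 at -0.34, Hspa1b at -0.04, Hspd1 at 0.03, Hsp90aa1 at 0.04 and Hsp90ab1 at 0.13. Without the 3 cells with most Hspa1b UMIs Hspa1b was at 0.53. Summed T cell markers were at 52.9 and 126.5 CPM in these cells (2 of 13 higher in the treated-labelled library), B cell markers at 49.8 and 113.1 CPM (1 of 10) and plasma cell markers at 132.2 and 267.9 CPM (1 of 8), with 1 T cell marker of the control-labelled library at 0. In the 2014 and 1035 neutrophil-like cells in which T cell, B cell and macrophage markers together had at most 1 UMI, the heat shock median was -0.09, Hspe1 was at -0.20 and Hspa1b at 0.81.

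The remaining classes had few members past 1.5-fold. In monocyte-like cells they were Atf3 (122.7 and 81.6 CPM, 0.59) and Hsph1 (19.6 and 12.7 CPM, 0.62), 2 of 40, against 2.7% of all genes higher and 2.4% lower. In T cell-like cells they were Hspa1b, Hspa1a (56.8 and 35.3 CPM, 0.69) and Egr1 (25.8 and 16.5 CPM, 0.64), 3 of 38, against 1.8% and 1.63%. In NK cell-like cells Zfp36 (121.4 and 80.6 CPM, 0.59) joined Hspa1b, 2 of 35, against 2.39% and 2.87%. In cluster 2 they were Btg2 (482.2 and 302.7 CPM, 0.67) and Egr1 (323.5 and 206.7 CPM, 0.65), 2 of 36, against 4.32% and 4.13%. All of these were higher in the treated-labelled library.

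In gamma delta T cell-like cells Egr1 (53.0 and 17.1 CPM, 1.63), Ier3 (32.1 and 20.1 CPM, 0.68) and Hspa1b were past 1.5-fold, 3 of 36, against 2.36% of all genes higher and 1.85% lower. Egr1 there was the signal of a few cells: 3 of them held 73.0% of its UMIs in the treated-labelled library and 34.8% in the control-labelled library, and without them the ratio was 0.36. In the mixed dendritic cell class Atf3 (165.2 and 77.8 CPM, 1.09), Egr1 (53.7 and 35.2 CPM, 0.61), Zfp36 (582.4 and 386.3 CPM, 0.59) and Hspa1b were higher, 4 of 38, against 5.43% and 3.27%. Its parts at resolution 2, cDC2-like and migratory dendritic cell-like cells, differed in direction for Atf3, Egr1 and Hspa1b. Zfp36 was higher in both (0.63 and 0.34, in that order). The immediate early medians were 0.10 and 0.01 and the heat shock medians -0.12 and 0.19. The 367 and 164 cDC2-like cells had Atf3 at 191.8 and 72.4 CPM (1.41), Egr1 at 57.0 and 27.2 CPM (1.07) and Hspa1b at 92.6 and 30.8 CPM (1.59). The 66 and 52 migratory dendritic cell-like cells had Atf3 at 32.1 and 94.96 CPM (-1.57), Egr1 at 39.1 and 54.9 CPM (-0.49) and Hspa1b at 121.4 and 162.5 CPM (-0.42), from 23 to 87 UMIs of each gene in a library.

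cDC1-like and ILC2-like cells were the classes in which immediate early members with at least 100 UMIs were at least 1.5-fold lower in the treated-labelled library. The list median was -0.22 in cDC1-like cells, with 23 of 30 members below 0. In ILC2-like cells it was -0.03, with 15 of 28 below 0, near the -0.02 of NK cell-like cells. In cDC1-like cells (206 and 145) 5 of 29 were at least 1.5-fold lower, against 2.53% of all genes: Egr1 (24.7 and 43.7 CPM, -0.82), Gadd45b (92.8 and 162.0 CPM, -0.80), Jun (56.6 and 95.3 CPM, -0.75), Nfkbia (516.5 and 805.7 CPM, -0.64) and Fos (434.9 and 663.7 CPM, -0.61). Myc (30.8 and 18.6 CPM, 0.73), Hspa1b and Hsph1 (43.1 and 22.1 CPM, 0.97) were higher, against 3.03% of all genes. Without the 3 cells with most UMIs of each gene, Nfkbia stayed at -0.64 and Gadd45b at -0.77, Fos and Jun were at -0.44 and -0.31, and Egr1 was at 0.65. Summed macrophage markers were at 156.0 and 244.3 CPM in cDC1-like cells (1 of 10 higher in the treated-labelled library, 1 at 0 there) and plasma cell markers at 560.8 and 1272 CPM (0 of 8 higher, none at 0), and their part in the ratios was not tested. In ILC2-like cells (121 and 141) Ier3 (65.8 and 140.5 CPM, -1.10) and Fos (212.3 and 347.5 CPM, -0.71) were lower and Ppp1r15a (302.5 and 175.6 CPM, 0.78) higher, of 20 immediate early members with at least 100 UMIs, against 3.87% and 3.76% of all genes. None of the 5 heat shock members with that many UMIs passed 1.5-fold in ILC2-like cells. Summed markers of several other cell types were lower there: macrophage markers at 101.4 and 164.5 CPM (3 of 10 higher), monocyte markers at 486.6 and 800.4 CPM (1 of 10) and neutrophil markers at 261.1 and 360.4 CPM (3 of 12), with 1, 3 and 3 of these markers at 0 in the treated-labelled library and 1, 3 and 4 in the control-labelled library. B cell markers were at 11.3 and 181.1 CPM (0 of 10 higher, 6 and 4 at 0). Their part in the ratios was not tested. In the 66 and 76 ILC2-like cells with at most 1 UMI of B cell, neutrophil or macrophage markers, a limit not scaled to depth, Ier3 was at -2.90 and Fos at -1.07.

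Taken over all kept cells, the members made up more of the treated-labelled library, and most of that difference was gone once both libraries were given the same class make-up. Immediate early members held 1.27% of all UMIs in the treated-labelled library and 0.894% in the control-labelled library, a log2 ratio of 0.51, and heat shock members 0.279% and 0.259%, a ratio of 0.10. With each class given the same weight in both libraries the ratios were 0.10 and -0.04. Of the 40 members 16 were at least 1.5-fold higher over whole libraries, against 13.8% of all genes, and 0 lower, against 7.12%. With the same class weights 1 was at least 1.5-fold higher, Hspa1b, at 0.80 in place of 1.30. This weighting was made for the members only, so no share over all genes stands beside that count. Whether fewer transcripts per cell or fewer cells of a class lie behind a whole-library value cannot be told apart from that value alone.

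Genes of the same pathways outside the 40 gave a similar picture in macrophage-like cells. Of 43 other immediate early or signal-induced genes 40 had at least 20 UMIs, with a median log2 ratio of 0.09 and 23 above 0, and of 38 with at least 100 UMIs 2 were 1.5-fold higher and 1 lower, against 2.38% and 3.07% of all genes. Irf1, an interferon-induced transcription factor, was at 132.5 CPM in the treated-labelled library and 65.4 CPM in the control-labelled library (1.02, 0.89 to 1.15), and Per1, a clock gene, at 64.4 and 38.8 CPM (0.73). Nr4a1, the remaining NR4A receptor, was at 370.0 and 256.1 CPM (0.53), and Errfi1, an inhibitor of EGF receptor signalling, was lower at 311.5 and 477.9 CPM (-0.62). Of 44 other chaperones and heat shock factor targets 43 were measured, with a median of 0.05 and 24 above 0. At least 1.5-fold higher or lower were 1 and 1 of the 43, and 0 and 0 of the 41 with at least 100 UMIs. The 4 of these 41 with the largest ratios were Dnajb5 (0.37), Hspb1 (-0.34), Hspa4l (0.32) and St13 (126.6 and 101.7 CPM, 0.32).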

How the data were processed

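CD45+ cells of mouse aorta were measured with a 10x 3′ kit (v2, per the labels) in 1 treated and 1 control library. The authors deposited UMI counts per gene and barcode. The submitters' processing notes name Cell Ranger 3.1.0, Seurat 4.4.0 and mm10, whereas the file headers name Cell Ranger 7.2.0. Cells with at least 500 genes and at most 15% mitochondrial UMIs were kept, 12466 and 12038 in the treated-labelled and control-labelled library. Scrublet (scanpy 1.11.5) called 684 and 533 of all barcodes doublets (5.2% and 4.26%, of 10.5% and 10.0% expected), of which 661 and 515 were among these cells and were removed, so that some doublets may remain. Cells of both libraries were clustered together (2000 variable genes without the members, 30 components, 15 neighbours, Leiden resolution 1; sub-clusters at 0.5) and classes were named by 19 marker lists. The minimum marker score of 1.2 was set after seeing the data, and the rebuilt names may differ from the study's.

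Raw counts were summed per class and library, divided by the class total (CPM) and compared as log2 ratios, for classes with at least 100 cells in each library. Medians cover members with at least 20 UMIs over both libraries, and folds past 1.5 those with at least 100. Level intervals are exact Poisson intervals and shares exact binomial ones, at 95%. Ratio intervals treat UMIs as independent counts. Members were named by class where past 1.5-fold with at least 100 UMIs, by highest and lowest class, and where among the 3 with most UMIs of their role in macrophage-like cells. Genes outside the module were named where they had the 4 largest ratios of their list with at least 100 UMIs. The members and lists were chosen with earlier results of these data known. The 13 planned and 3 added alternatives are given in the closing section. Steps were checked on simulated counts. Python 3.11.15, numpy 2.4.6, scipy 1.17.1, pandas 2.3.3, scikit-learn 1.9.0 and igraph 0.11.9 were used.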

Additional observations from a re-analysis of the deposited data

Results flagged for a closer look

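Of the members, 5 were at least 1.5-fold higher in the treated-labelled library in at least 1 class and at least 1.5-fold lower there in another, with the highest and lowest class given here as log2 ratios. Whether the classes differ was not tested, since each value compares 1 library with 1 library. Hspa1b was at 3.24 in plasma cell-like cells and at -1.11 in neutrophil-like cells, where the sign changed in several alternatives. Ier3 was at 1.86 in plasma cell-like and -1.10 in ILC2-like cells, and Fos at 1.14 in plasma cell-like and -0.71 in ILC2-like cells. Egr1 was at 1.63 in gamma delta T cell-like cells and -0.82 in cDC1-like cells, both of which moved toward 0 or past it without the 3 cells with most Egr1 UMIs (0.36 and 0.65). Nfkbia was at 0.76 in plasma cell-like cells and -0.64 in cDC1-like cells, and without those 3 cells was still at -0.64 in cDC1-like cells.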

How the results depend on the processing

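The 13 alternatives were totals without immunoglobulin genes, ratios centred on the median gene, equal cell weights, thinning to 2000 UMIs, doublet calls kept, at least 1000 genes, at most 5% mitochondrial UMIs, resolutions 0.5 and 2, members kept in the clustering, at most 1 UMI of other-lineage markers, equal cluster weights, and at least 100 UMIs per member. A further 3 were added after seeing the data: cells over 10000 UMIs left out, the 3 cells of each class with most Hspa1a and Hspa1b left out, and the 3 cells with most UMIs of the gene left out. No paired analysis was possible because each group is 1 library and no value comes from a test, and no library could be left out. Of the values that answer a comparison 68 held (within the counting interval, or 1.5 times for a count) and 7 moved. The immediate early median of macrophage-like cells (0.02) was 0.10 with each cell given equal weight and 0.11 with cells thinned to 2000 UMIs. The count of members past 1.5-fold in macrophage-like cells (1) was 3 with equal cell weights, 2 at resolution 2, 4 in cells with at most 1 UMI of other-lineage markers and 3 without cells over 10000 UMIs. The heat shock median was above 0 in 5 of 9 classes in cells with at most 1 such UMI, against 8 of 11. That alternative left mixed dendritic, cDC1-like and cluster 2 cells with too few cells for a value, and leaving out cells over 10000 UMIs did so for cDC1-like cells. Of the other values 1110 held, 255 moved and 28 that were past 1.5-fold changed sign, and the cause was not tested. Of the list medians by class, whatever their size, 13 of 172 immediate early and 11 of 172 heat shock ones had the other sign, in 5 and 4 of 12 classes. Outside neutrophil-like cells these included cluster 2 heat shock (0.06), at -0.14 with equal cell weights, and the mixed dendritic class heat shock (0.01), at -0.06 when centred.

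Most sign changes of values past 1.5-fold were in neutrophil-like cells. With equal cell weights, thinning, doublet calls kept and cells over 10000 UMIs left out, in that order, the heat shock median (-0.97) was 0.0097, 0.033, 0.044 and 0.011, Hsp90aa1 was 0.014, 0.10, 0.094 and 0.043, and Hsp90ab1 was 0.037, 0.062, 0.35 and 0.13. Hspd1 was 0.31 thinned, 0.35 with doublet calls kept and 0.027 without cells over 10000 UMIs. Hspa1b was 0.38 with equal cell weights, 0.73 with doublet calls kept, 1.61 at resolution 2, 0.89 with members kept in the clustering, 0.81 in cells with at most 1 UMI of other-lineage markers, and 0.21 and 0.53 without the 3 cells with most UMIs of the pair and of Hspa1b. In the 66 and 52 migratory DC-like cells at resolution 2, Atf3 was -1.57, Egr1 -0.49 and Hspa1b -0.42. Egr1 was -0.24 in plasma cell-like cells without cells over 10000 UMIs and 0.65 in cDC1-like cells without the 3 cells with most Egr1, and Ier3 was 0.15 in ILC2-like cells with doublet calls kept.

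Of 74 ratios past 1.5-fold, 63 were still past it without the 3 highest cells of the gene and 2 changed sign. Depth limits the members with few UMIs, and intervals cover counting error only.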
